A study of Homo sapiens with 12 samples.

Results

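The 10 genes described here are targets and components of the canonical Wnt pathway, namely AXIN2, RNF43, DKK1, TCF7, LEF1, TCF7L2, CTNNB1, CTNNBIP1, FZD7 and LRP6. They were taken by name from 20090 protein-coding genes, with earlier results of these data known. Each locus was the gene body with 20 kb added on either side. ChIP-exo, in which an exonuclease trims immunoprecipitated chromatin towards the crosslinked protein, had been run in DCIS.COM cells, an established human breast cancer line that models ductal carcinoma in situ. Each library was deposited as a list of peak pairs, which are borders found on both strands at a binding site, with a signal that was a whole number of tags times a constant of that library.

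The BCL9 knockdown (KD) cells carried a lentiviral shRNA against BCL9 in the PLKO.1 vector. They were assayed with the antibody to phosphoserine STAT3 (pSTAT3) in 2 libraries and with the BCL9 antibody in 2 libraries. The control cells carried a non-silencing construct in the same vector and gave 3 pSTAT3 libraries, 3 BCL9 libraries and 1 CTCF library. All cells were cultured in DMEM/F12 with horse serum, and the labels call the libraries of a group biological replicates. The cells were selected for lentiviral integration, a single BCL9 hairpin was used, and peak lists show neither the loss of BCL9 nor the identity of the cells, so neither could be checked here. The IgG sample was not analysed here, so no background of an unspecific antibody stands beside the values below.

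The lists differed widely in length, with 415624 and 493174 peak pairs in KD pSTAT3, 118933, 98665 and 374089 in control pSTAT3, 95586 and 336493 in KD BCL9, 28690, 24728 and 148755 in control BCL9, and 457119 in control CTCF. The 10 loci held 384 and 485 of these peak pairs in KD pSTAT3, 148, 91 and 404 in control pSTAT3, 113 and 324 in KD BCL9, 58, 58 and 195 in control BCL9, and 279 in control CTCF. Because of these lengths, shares are given per 100000 listed peak pairs, and again with every list held to its 24728 strongest peak pairs, the length of the shortest list.

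In the canonical Wnt pathway a secreted Wnt ligand binds a Frizzled receptor and an LRP co-receptor, which spares β-catenin from destruction so that it can enter the nucleus and bind TCF/LEF factors on DNA. BCL9 binds β-catenin there and links it to Pygopus, and several targets of the pathway (AXIN2, RNF43, DKK1) encode proteins that turn the pathway down again. STAT3 is a transcription factor of cytokine signalling, and AP-1 factors are common at enhancers of breast epithelial lines.

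In control cells 44 pSTAT3 regions and 29 BCL9 regions were found at the 10 loci, a region being a merged set of 100 bp windows with peak pairs in at least 2 of 3 libraries. Among the pSTAT3 regions, 19 shared at least 1 bp with a BCL9 region and are called co-occurring. The 100 bases at the centre of the best-ranked co-occurring region of each of the 7 genes that had one are shown because these are the places where both antibodies gave peak pairs. Their signals differed. The TCF7 region had 4 tags, none listed and 7 tags in control pSTAT3, and 5 tags, none listed and 6 tags in control BCL9. The 4, 5 and 6 tags were the lowest of their lists. Bases come from the plus strand of GRCh37, which has the hg19 coordinates of the lists. Capitals mark strings searched on both strands, namely AP-1 (TGANTCA), STAT3 (TTCNNNGAA), TCF/LEF (CTTTGAT or CTTTGAA), TEAD (GGAATG), C/EBP (TTGCNNAA) and CTCF (GGNGGCAG). Start sites are annotated transcript starts, of which most of these genes have several.

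AXIN2, 22342 bp after its nearest start site, outside the gene, chr17:63510408-63510507: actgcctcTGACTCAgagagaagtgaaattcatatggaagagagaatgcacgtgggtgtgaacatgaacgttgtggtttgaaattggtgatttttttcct
RNF43, promoter, 105 bp before a start site, chr17:56480137-56480236: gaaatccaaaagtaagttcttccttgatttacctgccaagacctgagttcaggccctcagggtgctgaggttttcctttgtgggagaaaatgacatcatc
DKK1, 3975 bp after a start site, outside the gene, chr10:54078937-54079036: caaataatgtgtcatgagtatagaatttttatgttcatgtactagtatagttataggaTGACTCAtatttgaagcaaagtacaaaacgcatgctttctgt
TCF7, intron, 1802 bp after a start site, chr5:133461061-133461160: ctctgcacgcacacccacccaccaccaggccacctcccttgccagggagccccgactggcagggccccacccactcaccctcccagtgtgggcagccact
LEF1, intron, 29343 bp after a start site, chr4:109056958-109057057: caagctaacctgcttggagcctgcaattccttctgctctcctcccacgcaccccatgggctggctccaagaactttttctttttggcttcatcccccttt
TCF7L2, intron, 41263 bp after a start site, chr10:114751888-114751987: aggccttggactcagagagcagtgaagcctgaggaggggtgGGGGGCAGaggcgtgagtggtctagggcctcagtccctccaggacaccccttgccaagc
CTNNBIP1, intron, 2632 bp after a start site, chr1:9950613-9950712: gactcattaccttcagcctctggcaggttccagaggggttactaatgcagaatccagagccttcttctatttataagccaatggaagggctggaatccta

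AXIN2 and DKK1 each held an AP-1 string in these 100 bases, and TCF7L2 held a CTCF string. The other 4 sequences held none of the strings, although an AP-1 string centred 48 bp from the centre began 1 base before the CTNNBIP1 window, and the RNF43 region held AP-1 strings outside its window, the nearest at 61 bp. Over all 19 co-occurring regions the central 100 bases held an AP-1 string in 5 (26.3%), against 2409 of 8542 (28.2%) co-occurring regions of the whole genome. A TCF/LEF string, the sequence bound by the factors that recruit β-catenin, was present in 1 of 19 (5.26%), against 267 of 8542 (3.13%). The STAT3 string was present in 0 of 19, against 319 of 8542 (3.73%). A TEAD string and a C/EBP string were each present in 1 of 19 (5.26%), against 13.5% and 12.7% of all co-occurring regions, and a CTCF string in 1 of 19, against 3.85%. Counted over the whole merged region, an AP-1 string was found in 8 of 19 (42.1%), against 47.1% of all co-occurring regions.

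At 3 of the genes the best-ranked pSTAT3 region overlapped no BCL9 region. These sequences were chosen after their values were seen and are shown because pSTAT3 stood there without a BCL9 region. A missing region does not mean that no BCL9 peak pair was listed. Of 25 such pSTAT3 regions at the loci, 8 had a BCL9 window in a control library and 14 in a KD library. Control BCL9 replicates 1 and 2 listed only 28690 and 24728 peak pairs, so weaker binding could go unlisted.

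TCF7L2, intron, 31897 bp before a start site, chr10:114853348-114853447: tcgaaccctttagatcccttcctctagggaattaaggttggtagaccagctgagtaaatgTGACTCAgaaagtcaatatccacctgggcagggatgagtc
TCF7, promoter, 106 bp before a start site, chr5:133474136-133474235: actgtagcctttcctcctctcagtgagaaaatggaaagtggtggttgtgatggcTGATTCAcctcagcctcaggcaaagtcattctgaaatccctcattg
CTNNB1, intron of the neighbour ULK4, 8038 bp past the end of CTNNB1, chr3:41309575-41309674: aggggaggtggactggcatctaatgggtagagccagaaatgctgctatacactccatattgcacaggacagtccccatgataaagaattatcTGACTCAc

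All 3 held an AP-1 string in their central 100 bases. Of the 25 pSTAT3 regions at the loci that overlapped no BCL9 region 7 (28%) held one, against 36.0% of the 28502 such regions of the genome, whereas 0 of the 7 BCL9 regions that overlapped no pSTAT3 region did, against 4.58% of 2950.

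Peak-pair density, the number of peak pairs per length of locus as a fold over the genome-wide mean of the same list, ran widely among the 10 genes. The median over the genes of the control pSTAT3 density was 2.35-fold, against 0.91-fold over all genes, and that of the control BCL9 density was 4.16-fold, against 0.59-fold. In the CTCF list the medians were 1.55-fold and 1.46-fold. Since the genes were chosen with earlier results of these data known, these medians are descriptive and not a test. In control pSTAT3 the order of the mean densities was CTNNBIP1 (8.71 ± 0.82), DKK1 (8.09 ± 4.64), RNF43 (3.99 ± 0.86), TCF7L2 (3.30 ± 0.67), TCF7 (2.94 ± 1.16), AXIN2 (1.77 ± 0.42), CTNNB1 (1.70 ± 0.24), FZD7 (1.32 ± 0.72), LEF1 (0.69 ± 0.29) and LRP6 (0.38 ± 0.66), each as fold with its SD over n = 3. The ranges of neighbours in this order overlapped, except that all 3 DKK1 values lay above all 3 RNF43 values.

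**Figure D1:**
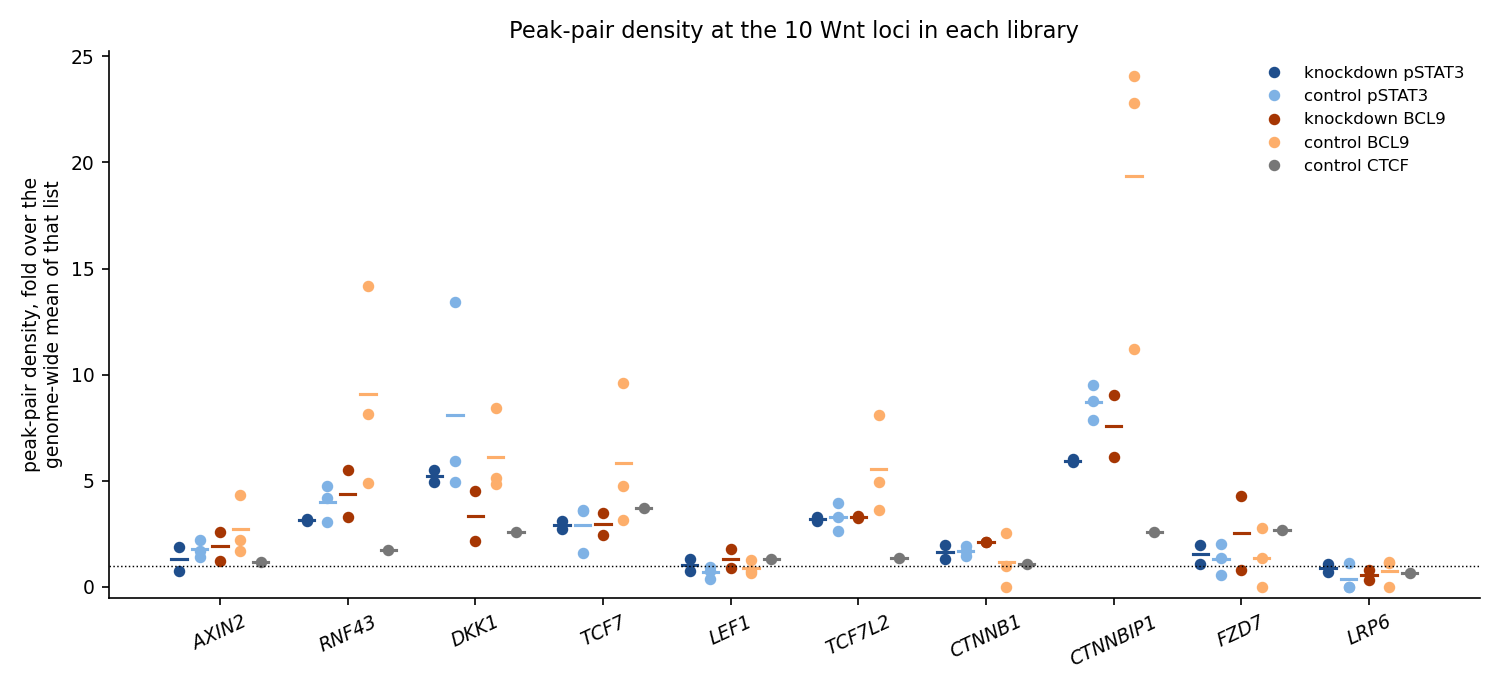
Peak-pair density of each locus (vertical axis, fold over the genome-wide mean of that list, linear scale) for the 10 genes (horizontal axis). Each point is a library, short bars are group means, the dotted line is the genome-wide mean, and CTNNBIP1 lies highest in control BCL9, between 11.2-fold and 24.1-fold.

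AXIN2 encodes a scaffold of the complex that marks β-catenin for destruction and is a widely used readout of Wnt signalling. Its density was 1.90-fold and 0.76-fold in KD pSTAT3, against 1.40-fold, 1.68-fold and 2.22-fold in control pSTAT3. In BCL9 libraries it was 2.61-fold and 1.23-fold in KD cells, against 4.34-fold, 1.68-fold and 2.23-fold in control cells. KD and control ranges overlapped for both antibodies, with single peak-pair counts between 1 and 20. The co-occurring region of AXIN2 lay 14223 bp past the end of the gene, and its strongest peak pair had 17 and 26 tags in KD pSTAT3, against 11, 8 and 16 tags in control pSTAT3. With the BCL9 antibody it had 13 and 7 tags in KD cells, against 6 tags, none listed and 16 tags in control cells.

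RNF43 encodes a ubiquitin ligase of the cell membrane that removes Frizzled receptors. Both of its co-occurring regions were promoters of internal start sites, 105 and 804 bp before a start site and within the gene body. The nearer one had 24 and 23 tags in KD pSTAT3, against 14, 11 and 24 tags in control pSTAT3, and 12 and 23 tags in KD BCL9, against 11, 18 and 27 tags in control BCL9. This region therefore had peak pairs in all 10 pSTAT3 and BCL9 libraries. The RNF43 locus also touches HSF5 and SUPT4H1, and its strongest CTCF peak pair, 219 tags, stood in the top 0.0512% of the CTCF list, the highest rank of CTCF at any of the 10 loci.

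DKK1 encodes a secreted inhibitor that occupies LRP co-receptors. The locus, at 43.8 kb the shortest of the 10, had a pSTAT3 density of 5.51-fold and 4.92-fold in KD cells, against 13.4-fold, 4.92-fold and 5.94-fold in control cells. Its co-occurring region lay 1185 bp past the 3′ end of the gene and held the strongest peak pair of the locus in every pSTAT3 and BCL9 library. Those peak pairs had 50 and 90 tags in KD pSTAT3, which put them in the top 0.828% and 0.119% of their lists, against 31, 14 and 41 tags in control pSTAT3, in the top 1.14%, 8.59% and 1.12%. With the BCL9 antibody they had 15 and 34 tags in KD cells, in the top 10.5% and 0.445%. In control cells they had 8, 12 and 9 tags, in the top 21.0% to 37.1%. These percents depend on list length. Counted as peak pairs with at least that signal, the positions were 10041 and 1499 in KD BCL9, against 6029, 9174 and 38871 in control BCL9. For pSTAT3 they were 3442 and 586 in KD cells, against 1354, 8473 and 4208 in control cells, so both pairs of groups overlapped. At equal list length DKK1 kept 9 and 12 peak pairs in KD pSTAT3, against 9, 4 and 15 in control pSTAT3, so the groups overlapped. With the BCL9 antibody it kept 2 and 9 peak pairs in KD cells, against 2, 3 and 0 in control cells.

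A second cluster at DKK1 carried pSTAT3 without a control BCL9 region. Its 2 regions lay 19525 and 20588 bp after a start site, and both held an AP-1 string within 11 bp of the centre. The region at 19525 bp had 18 and 38 tags in KD pSTAT3, against 7, 8 and 20 tags in control pSTAT3. The region at 20588 bp had 25 and 18 tags in KD pSTAT3, against 7 tags, none listed and 19 tags in control pSTAT3. Neither had a peak pair in any control BCL9 library, while KD BCL9 replicate 2 listed 15 and 6 tags there.

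TCF7, LEF1 and TCF7L2 encode TCF/LEF factors, the DNA-binding partners of β-catenin, and the loci differed. TCF7L2 held 12 control pSTAT3 regions, of which 5 were co-occurring, all in introns of its 217432 bp gene body. TCF7 held 5 with 2 co-occurring, and LEF1 held 2 with 1 co-occurring in 161 kb of locus. LEF1 density stayed near the genome-wide mean, at 0.77-fold and 1.33-fold in KD pSTAT3, against 0.95-fold, 0.38-fold and 0.75-fold in control pSTAT3.

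The strongest pSTAT3 site of TCF7L2 had no BCL9 region. The region 31897 bp before a start site, printed above, had 81 and 98 tags in KD pSTAT3, in the top 0.164% and 0.0852% of the lists, against 27, 34 and 45 tags in control pSTAT3, in the top 1.78%, 0.851% and 0.854%. Among BCL9 libraries it was listed only in KD replicate 2, with 15 tags, and in none of the 3 control libraries. A co-occurring region of the same intronic stretch, 37959 bp before the start site, had 42 and 73 tags in KD pSTAT3, against 8 tags, none listed and 29 tags in control pSTAT3, and 8 and 18 tags in KD BCL9, against 7, 11 and 30 tags in control BCL9. The best-ranked co-occurring region, 41263 bp after a start site, instead had similar tags with both antibodies, 20 and 23 in KD pSTAT3 against 17, 16 and 18 in control pSTAT3, and 20 and 17 in KD BCL9 against none listed, 22 and 30 in control BCL9.

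The best-ranked pSTAT3 region of TCF7 also overlapped no BCL9 region. This promoter region 106 bp before an internal start site had 22 and 28 tags in KD pSTAT3, against 7 tags, none listed and 34 tags in control pSTAT3. The BCL9 antibody gave no peak pair in KD replicate 1 and 17 tags in KD replicate 2, against 7 tags in control replicate 1 alone.

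CTNNB1 encodes β-catenin itself. It had 3 control pSTAT3 regions and no BCL9 region in either condition. One pSTAT3 region stood 1 bp before a start site of CTNNB1, with 6 and 10 tags in KD pSTAT3, against 10 tags, 8 tags and none listed in control pSTAT3. With the BCL9 antibody it had 7 and 7 tags in KD cells, against none listed, none listed and 7 tags in control cells. The KD peak pairs did not merge into a BCL9 region. The other 2 lay in an intron of the neighbouring gene ULK4, and the stronger, printed above, had 32 and 31 tags in KD pSTAT3, against 12 tags, none listed and 25 tags in control pSTAT3. At each of these 2 ULK4 regions KD BCL9 replicate 2 listed 6 tags, and no other BCL9 library listed a peak pair.

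CTNNBIP1 encodes ICAT, a small protein that binds β-catenin and blocks its contact with TCF factors. It had the highest mean density of the 10 loci in each pSTAT3 and BCL9 group. Its density exceeded that of 98.3% and 98.8% of all genes in KD pSTAT3, 98.5%, 99.0% and 99.5% in control pSTAT3, 98.1% and 98.4% in KD BCL9, and 99.4% to 99.5% in control BCL9, against 79.6% in the CTCF list. It held 7 of the 19 co-occurring regions, and 6 of those 7 lay within the gene, 2 of them at promoters. The region 2632 bp after a start site, printed above, had 45 and 47 tags in KD pSTAT3, against 23, 15 and 53 tags in control pSTAT3, and 44 and 27 tags in KD BCL9, against 8, 14 and 33 tags in control BCL9. The seventh lay 11609 bp past the end of the gene, nearest to a start site of CLSTN1, and carried the strongest control pSTAT3 peak pair of the locus, 69 tags in replicate 3.

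FZD7, a Frizzled receptor, and LRP6, the co-receptor, had no control region of either antibody. FZD7 had 12 and 8 peak pairs in KD pSTAT3, against 1, 2 and 11 in control pSTAT3, and 6 and 4 in KD BCL9, against 0, 1 and 3 in control BCL9. LRP6 had 19 and 33 in KD pSTAT3, against 0, 0 and 27 in control pSTAT3, and 2 and 17 in KD BCL9, against 2, 0 and 11 in control BCL9. At both loci the lists with few or no peak pairs included the short ones, and the lists hold only peak pairs above the threshold of the peak caller, so weaker binding was not detectable.

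**Figure D2:**
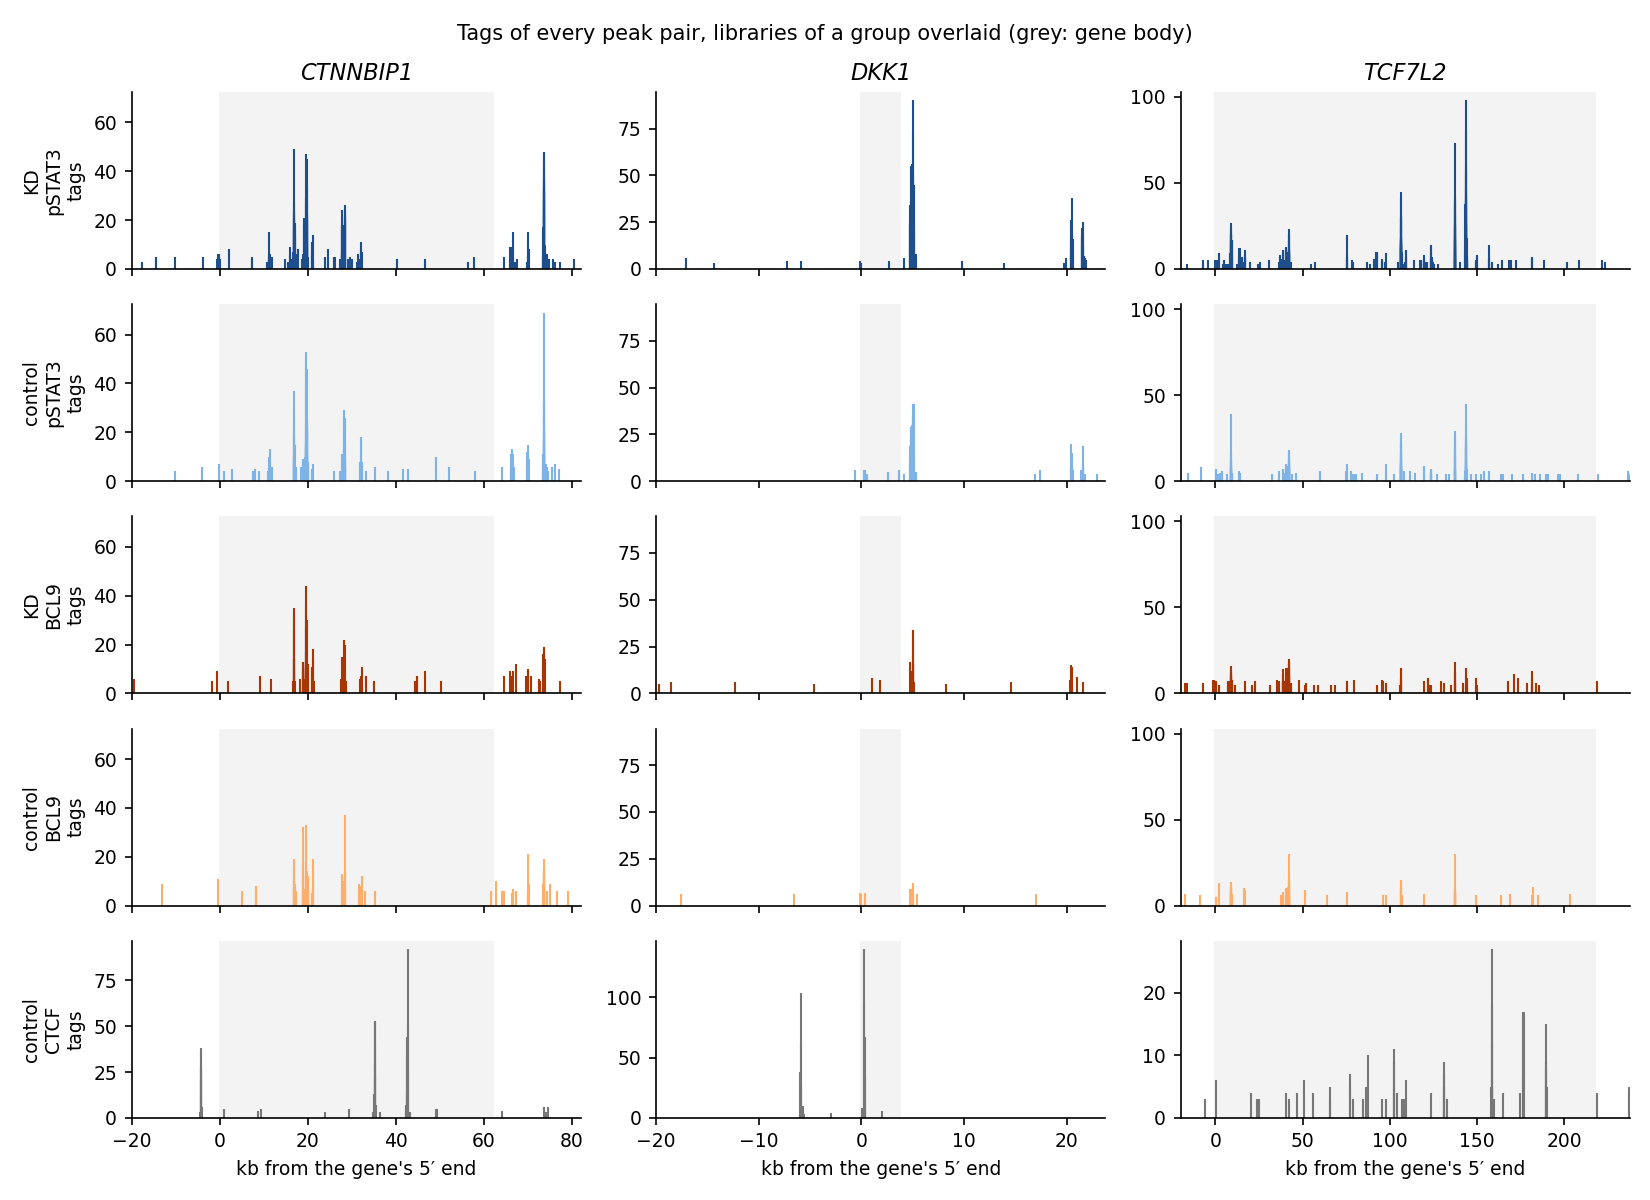
Tags of every peak pair (vertical axis, whole tags, linear scale) against distance from the 5′ end of the gene (horizontal axis, kb) at CTNNBIP1, DKK1 and TCF7L2. Rows are groups with their libraries overlaid, the CTCF row has its own scale, and grey marks the gene body. pSTAT3 and BCL9 peak pairs stack at the same positions of CTNNBIP1, while the tallest KD pSTAT3 line of TCF7L2, 98 tags, has no line in the control BCL9 row.

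The density of control co-occurring regions at the 10 loci was 1.64 per 100 kb, against 0.281 per 100 kb over the genome. Of the 10 genes 7 had at least 1 such region, where 19.4% of all protein-coding genes did. The genes were chosen with earlier results of these data known, so these comparisons with all genes are descriptive and not a test. The shares of genes also take no account of locus length, which ran from 43.8 kb to 257 kb among the 10. With every list at equal length 4 of the 10 (RNF43, DKK1, TCF7L2 and CTNNBIP1) still had one, where 8.79% of all genes did, and with 3 of 3 libraries required 4 did, where 7.64% of all genes did. In KD cells 81 pSTAT3 regions and 27 BCL9 regions were found in both libraries, 21 regions co-occurred, and again 7 of 10 genes had one, where 30.0% of all genes did, which became 3 of 10 (DKK1, TCF7L2 and CTNNBIP1) and 6.11% at equal list length. Of the pSTAT3 regions at the loci 25.9% were co-occurring in KD cells, against 43.2% in control cells. Genome-wide these shares were 23.2% in KD cells and 23.1% in control cells. The share at the loci was not tested between the conditions, since list lengths and the number of libraries required differ between them.

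Of the 19 control co-occurring regions 17 overlapped a co-occurring region of KD cells (89.5%), against 73.8% of the 8542 of the genome. Every control co-occurring region of AXIN2, RNF43, DKK1, LEF1, TCF7L2 and CTNNBIP1 was among the 17. The 2 at TCF7 were not, because KD BCL9 replicate 1, a list of 95586, had no peak pair there. KD BCL9 replicate 2 listed 14 and 13 tags at these 2 regions. In the other direction 5 KD co-occurring regions overlapped no control one, 2 at TCF7L2 and 1 each at RNF43, TCF7 and LEF1.

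**Figure D3:**
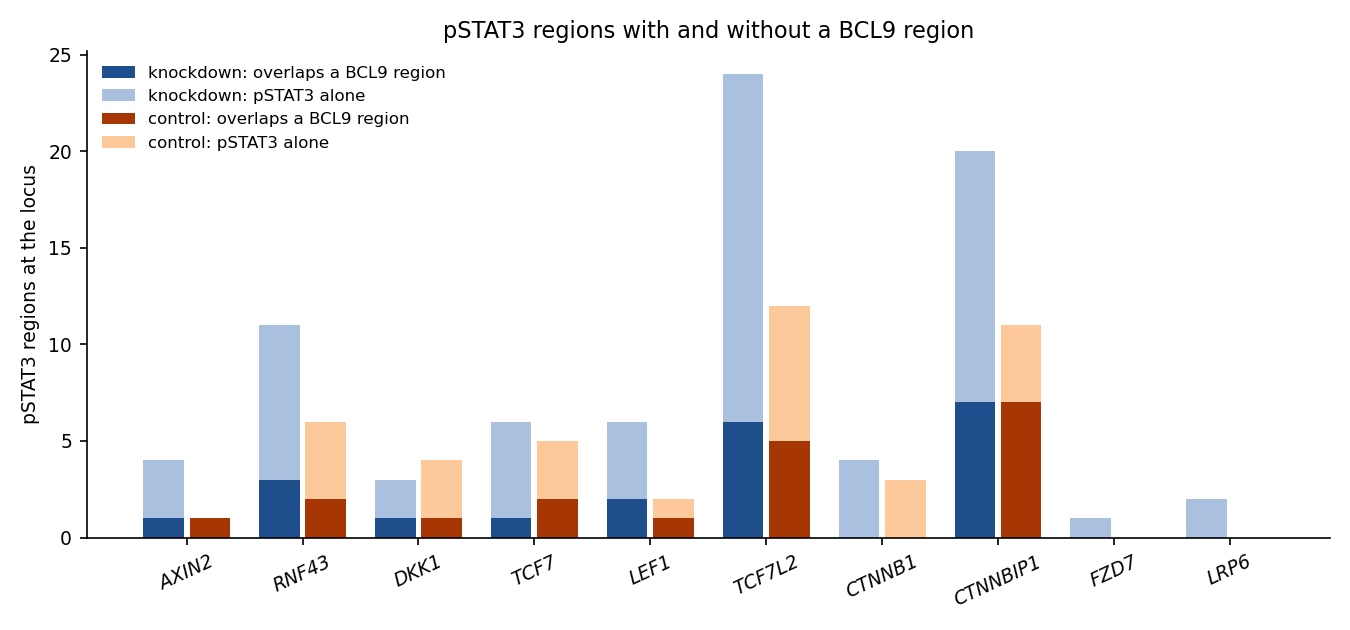
Number of pSTAT3 regions at each locus (vertical axis), with KD bars left of control bars. The dark part of a bar overlaps a BCL9 region and the light part does not, and CTNNBIP1 has 7 co-occurring regions in each condition.

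**Figure D4:**
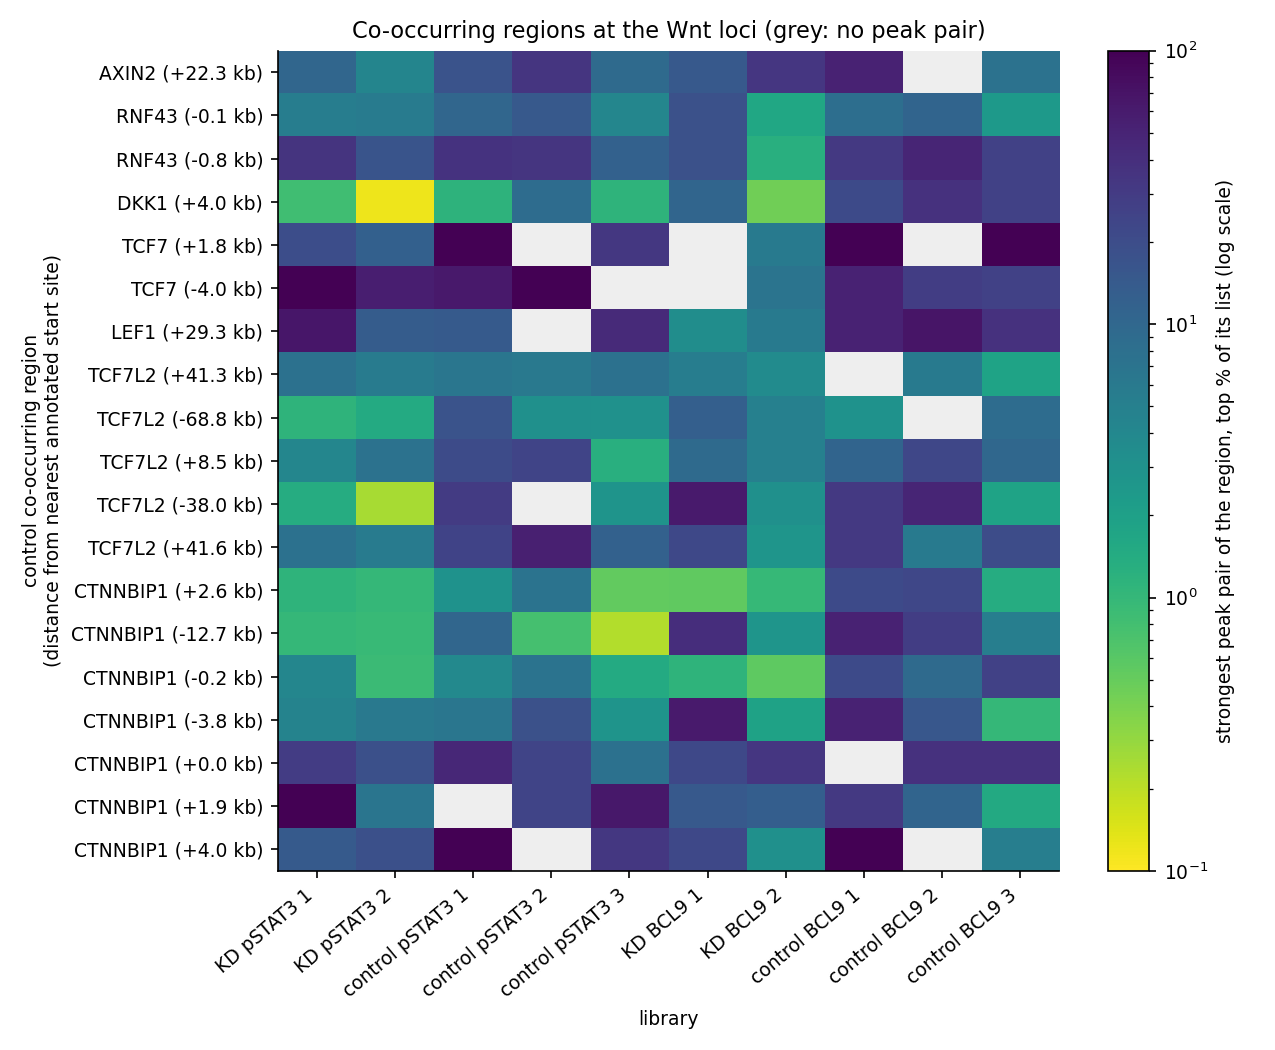
Rank of the strongest peak pair of each of the 19 control co-occurring regions (rows, with the signed distance from the nearest start site) in each library (columns), as the top percent of that list on a log colour scale where yellow is strongest. Grey cells had no peak pair, and the DKK1 region ranked highest of all cells, in the top 0.119% of KD pSTAT3 replicate 2.

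The knockdown comparison asks whether pSTAT3 or BCL9-antibody binding at these loci differed when BCL9 was depleted. With 2 libraries against 3 an exact two-sided permutation test has 10 assignments and cannot give a p below 0.1, so a gene was called only where all KD libraries lay above or below all control libraries. For pSTAT3 CTNNBIP1 alone of the 10 was called, in the lower direction. It took 19.7 and 20.3 peak pairs per 100000 in KD cells, against 32.0, 29.4 and 26.5 in control cells. The SD was 0.39 in KD cells (n = 2) and 2.75 in control cells (n = 3), the difference of the means was -9.27 per 100000 and their ratio was 0.683 (exact permutation p = 0.1, Benjamini-Hochberg adjusted p = 0.986 over 19979 genes). Over all genes 6.99% were called lower and 13.3% higher, so 1 lower and 0 higher of 10 is near that background.

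CTNNBIP1 also stayed lower at equal list length, with 11 and 12 peak pairs in KD pSTAT3, against 19, 15 and 18 in control pSTAT3, where 2.03% of all genes were called lower. The tags of its printed region, given above, overlapped between the groups. The 24728th peak pair had 22 and 24 tags in KD pSTAT3, against 9, 8 and 19 in control pSTAT3, and the part of this depth in the result was not tested.

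For the other 9 genes the KD and control pSTAT3 shares overlapped. TCF7L2 took 26.5 and 28.0 per 100000 in KD cells, against 33.6, 22.3 and 28.1 in control cells. At equal list length it was apart in the higher direction, with 16 and 14 peak pairs in KD cells against 9, 7 and 11 in control cells, where 2.08% of all genes were called higher. The median difference of pSTAT3 density over the 10 genes was -0.07-fold, beside 0.06-fold over all genes.

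With the BCL9 antibody DKK1, TCF7L2 and CTNNBIP1 were lower in KD cells and none was higher, that is 3 of 10 against 4.04% lower and 18.6% higher over 19563 genes. CTNNBIP1 took 30.3 and 20.5 per 100000 in KD cells, against 76.7, 80.9 and 37.6 in control cells, a difference of -39.6 and a ratio of 0.391. TCF7L2 took 28.2 and 27.6 in KD cells, against 41.8, 68.7 and 30.9 in control cells, with a ratio of 0.592. DKK1 took 3.14 and 6.54 in KD cells, against 6.97, 12.1 and 7.39 in control cells, with a ratio of 0.548. The exact permutation p was 0.2 and the adjusted p 0.840 for each of the 3.

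None of the 10 was called with the BCL9 antibody at equal list length, where 2.31% of all genes were lower and 3.07% higher, and the differences of DKK1 and TCF7L2 turned positive. CTNNBIP1 then had 15 and 17 peak pairs in KD cells, against 19, 20 and 17 in control cells, and TCF7L2 had 9 and 14 in KD cells, against 9, 17 and 8 in control cells. The shares per 100000 of CTNNBIP1 and TCF7L2 were highest in the shortest lists, control BCL9 replicates 1 and 2. The median difference of BCL9 density over the 10 genes was -1.55-fold, beside 0.23-fold over all genes.

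**Figure D5:**
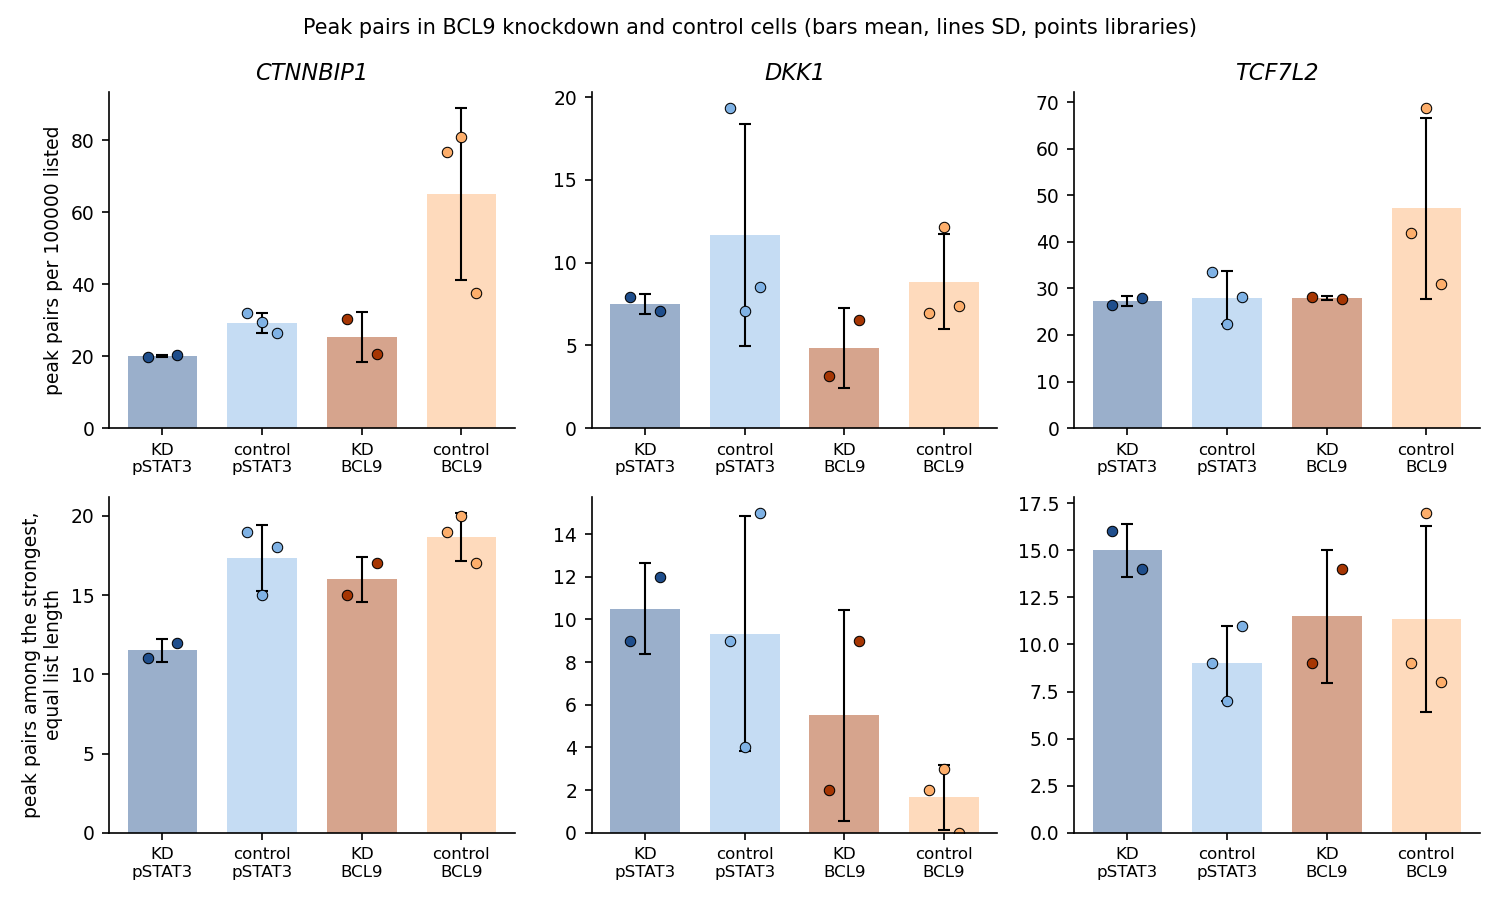
Peak pairs of CTNNBIP1, DKK1 and TCF7L2 per 100000 listed (top row) and among the 24728 strongest of each list (bottom row), with KD left of control for each antibody. Bars are means, lines are SD and points are libraries, and the 2 KD pSTAT3 points of CTNNBIP1 lie below all 3 control points in both rows.

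All 5 pSTAT3 libraries were set against all 5 BCL9 libraries to ask whether any locus favoured one antibody. None of the 10 genes passed an adjusted p of 0.05 by the exact permutation test, nor did any of the 20011 genes tested (0.0%), of which 2510 had an unadjusted p under 0.05, the smallest p that the assignments allow being 0.00794. No gene of the 10 had groups that did not overlap, where 1.72% of all genes lay higher and 1.88% lower in pSTAT3. At an unadjusted p under 0.05 stood only RNF43, which took 10.6 and 10.9 per 100000 in KD and 14.3, 16.2 and 10.4 in control pSTAT3 libraries, against 18.8 and 11.3 in KD and 27.9, 48.5 and 16.8 in control BCL9 libraries. The difference was -12.2 per 100000 (exact permutation p = 0.0397, adjusted p = 0.376), and the BCL9 shares again were highest in the 2 shortest lists. Within conditions the ranges of RNF43 did not overlap in either, the highest pSTAT3 share being 10.9 against a lowest BCL9 share of 11.3 in KD cells, and 16.2 against 16.8 in control cells. The same held for CTNNBIP1, with 20.3 against 20.5 in KD cells and 32.0 against 37.6 in control cells, so that 2 of 10 were lower in pSTAT3 within both conditions and 0 higher, where 2.87% of all genes were lower and 3.77% higher. At equal list length 1 of 10, RNF43, was lower within both conditions, where 2.94% of all genes were.

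More of the genes stood at an unadjusted p under 0.05 at equal list length, namely DKK1 and CTNNB1 higher and RNF43 and LEF1 lower in pSTAT3, that is 4 of 10 where 10.6% of all genes did, and none passed after adjustment. DKK1 had 9 and 12 peak pairs in KD and 9, 4 and 15 in control pSTAT3, against 2 and 9 in KD and 2, 3 and 0 in control BCL9. Its difference was 26.7 per 100000 at equal list length (exact permutation p = 0.0317), and 2.77 per 100000 over the whole lists (exact permutation p = 0.349). RNF43 had 1 and 0 peak pairs in KD and 4, 1 and 4 in control pSTAT3, against 3 and 6 in KD and 7, 12 and 5 in control BCL9. LEF1 had 0 and 0 in KD and 1, 0 and 0 in control pSTAT3, against 2 and 1 in KD and 1, 1 and 2 in control BCL9. CTNNB1 had 1 and 2 in KD and 2, 1 and 1 in control pSTAT3, against 0 and 0 in KD and 1, 0 and 0 in control BCL9. The LEF1 and CTNNB1 results thus rest on at most 2 peak pairs per library. For each of these 4 genes the ranges of the antibodies still met or overlapped.

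CTCF is a factor of insulators and chromatin loops, and few co-occurring regions of these loci held a CTCF peak pair. Of the 19 co-occurring regions 2 (10.5%) held a CTCF peak pair, against 22.9% of all co-occurring regions, and with the CTCF list held to its 24728 strongest peak pairs 0 did, against 0.620%. These 2, 12683 bp from a CLSTN1 start site and 41263 bp after a TCF7L2 start site, had 6 and 3 CTCF tags. Of the 25 pSTAT3 regions without a BCL9 region 2 (8%) held a CTCF peak pair, against 15.7% genome-wide. Of the 7 BCL9 regions without a pSTAT3 region 1 (14.3%) did, against 17.3%. That region, in an intron of CTNNBIP1, had 53 CTCF tags. The strongest CTCF peak pairs stood in the top 0.383% of the list at DKK1, 0.854% at AXIN2, 1.74% at CTNNBIP1 and 1.99% at TCF7. They stood only in the top 16.1% at FZD7, 19.6% at LEF1, 20.4% at TCF7L2, 27.7% at CTNNB1 and 56.8% at LRP6.

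Among 87 other Wnt pathway genes 30 (34.5%) had a control co-occurring region and 37 (42.5%) had one in KD cells, read against the 19.4% and 30.0% of all genes. By role these were 7 of 13 ligands, 5 of 16 receptors, 5 of 14 cytoplasmic components, 6 of 13 nuclear factors, 2 of 21 secreted and membrane modulators and 5 of 10 other targets in control cells. The genes with the highest counts of control co-occurring regions were PYGO2, the Pygopus partner of BCL9, with 5, the target MYC with 5, the R-spondin receptor LGR6 with 5, and the secreted Wnt antagonist SFRP1 with 4. The next were TCF7L1, CD44, LGR4 and ROR1 with 3 each. The ligands WNT3A, WNT5B and WNT9A, the receptor RYK, the kinase CSNK1E and the factor SOX9 had 2 each. WLS, which carries Wnt proteins to the cell surface, had 1, as did AXIN1, CSNK1A1, CSNK1D and GSK3B of the destruction complex and its kinases, and the nuclear factors BCL9, BCL9L, TLE1 and TLE3. For pSTAT3 9 of the 87 (10.3%) were called higher and 8 (9.20%) lower in KD cells, where 13.3% and 6.99% of all genes were. For the BCL9 antibody 12 (13.8%) were called higher and 5 (5.75%) lower in KD cells, where 18.6% and 4.04% of all genes were, so both pairs of shares lie near the background. The median control pSTAT3 density over these 87 was 1.13-fold, against 2.35-fold over the 10 genes.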

How the data were processed

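ChIP-exo was carried out in DCIS.COM cells with antibodies to pSTAT3, BCL9 and CTCF. The lists deposited by the authors hold peak pairs on hg19, called per library, with a signal (coverage of tags) that was a whole multiple of a constant of each library within 0.01 tags. The processing notes name bcl2fastq and hg19, the methods name ChExMix for consensus peaks, and no source used here gives the aligner. Signals were divided by that constant to give tags. How the constant was set is not stated, so tags were compared within a library by rank and between libraries only as listed values. PCR duplicates could not be assessed, and each list starts at 3 to 9 tags.

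Genes were taken from GENCODE (GRCh37 lift), with 1 locus per symbol on chromosomes 1 to 22 and X. Peak pairs with midpoints in the gene body and 20 kb on each side were counted per 100000 listed. Groups were compared for every gene by exact two-sided permutation tests with Benjamini-Hochberg adjustment, and genes with no peak pair in the libraries compared were left out. Windows of 100 bp round midpoints were merged and kept when present in 2 of 3 control or 2 of 2 KD libraries. Promoters reach 1 kb to each side of a start site. A rank is the percent of a list with at least that signal. Replicates are called biological by the labels, and whether each was a separate culture could not be checked here. Their numbers were not used to pair the libraries in the main tests. The correlations of same-numbered libraries lay between -0.0718 and 0.14. With 2 KD libraries the deviations from the group mean mirror each other, so these correlations cannot exclude pairing.

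All 10 members were named. Of the other Wnt genes, up to 3 per role with most co-occurring regions were named, with ties. RYK was added because its count equals that of genes named in other roles. The members and lists were chosen with earlier results of these data known. The alternatives were equal list length, a minimum of 9 tags, flanks of 5 and 50 kb, a replicate block, each replicate left out, 3 of 3 control libraries, and an overlap of 50 bp. Python 3.11.15, numpy 2.4.6, pandas 2.3.3 and pysam 0.24.0 were used, and the code was tested on simulated data.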

Additional observations from a re-analysis of the deposited data

How the results depend on the processing

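The lower pSTAT3 share of CTNNBIP1 in KD cells held at equal list length, at 9 tags and with both other flanks (leaving out a library cannot undo groups that do not overlap). The number of the 10 genes called for pSTAT3, 1, became 2 at equal list length, 3 at a minimum of 9 tags, 2 with a flank of 5 kb and 3 at equal list length with ties shared out (an alternative chosen after seeing the data), and ran between 2 and 4 with single libraries left out, where a lone library or 2 libraries are more easily apart. For the BCL9 antibody 3 became 0 at equal list length, with or without ties shared out, and 0 at 9 tags, and ran between 3 and 7 with libraries left out. With a flank of 50 kb the count stayed 3, but DKK1 was no longer called and LEF1 was called higher. Among the genes called with the BCL9 antibody, the differences that turned positive were DKK1 (15.5 at equal list length, 12.5 with ties shared out, 7.996 at 9 tags), TCF7L2 (0.67 at equal list length) and CTNNBIP1 (6.02 at 9 tags), per 100000. Differences of genes not called also changed sign, as with the BCL9 antibody TCF7 (-7.27, against 4.72 at equal list length and 2.28 at 9 tags) and LRP6 (-1.22, against 1.80 at 9 tags), and with pSTAT3 TCF7L2 (-0.78, against 24.3 at equal list length) and DKK1 (-4.14, against 4.72 at equal list length). The cause was not tested.

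For pSTAT3 against BCL9 the count of genes passing an adjusted p of 0.05 stayed 0 under each of these. The count with groups that do not overlap, 0, did not. RNF43 was lower at 9 tags (exact permutation p = 0.00794, where 1.32% of all genes were lower) and without KD BCL9 replicate 2 (3.02%), and with ties shared out RNF43 was lower (3.05%) and CTNNB1 higher (2.41%). The genes of the 10 at an unadjusted p under 0.05, 1, were 4 at equal list length with or without ties shared out and 2 at 9 tags or with a flank of 50 kb.

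With a replicate block, that is, differences between libraries of the same number, 3 genes moved one way in both pairs for pSTAT3 (RNF43 and CTNNBIP1 lower, LRP6 higher), where 38.2% of all genes were higher and 17.3% lower. For the BCL9 antibody 8 did, 6 lower and 2 higher, where 41.6% of all genes were higher and 11.3% lower. For pSTAT3 against BCL9 0 genes passed by adjusted p, while RNF43 and CTNNBIP1 were lower in all 5 pairs (exact permutation p = 0.0625, the smallest that 5 pairs can give), where 5.4% of all genes were lower and 8.07% higher. Whether equal numbers mark paired libraries could not be settled.

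Control pSTAT3 regions, 44, were 11 at equal list length, 15 at 9 tags and 18 in 3 of 3 libraries, and between 21 and 37 with a library left out. Control BCL9 regions, 29, were 17, 13 and 13 under these, and between 15 and 24. Co-occurring control regions, 19, were 9 under each, and between 13 and 17. Co-occurring KD regions, 21, were 5 at equal list length and 10 at 9 tags. With a library left out they were between 26 and 43, the highest without KD BCL9 replicate 1. Regions of that antibody were then required in the remaining KD library alone, a looser rule. Of the 10 genes 7 had a control co-occurring region, which became 4 at equal list length, 3 at 9 tags (9.24% of all genes) and 4 in 3 of 3 libraries, and ran between 5 and 7 with a library left out. For KD cells 7 became 3 at equal list length and 4 at 9 tags (15.2% of all genes).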
